A study of Mus musculus with 384 samples.

Results

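The 7 genes described here encode transcription factors known from basal and progenitor cells of the mammary gland: the p53-family gene Trp63, the SNAI-family gene Snai2, the SOX genes Sox9 and Sox10, the zinc finger genes Bcl11a and Bcl11b, and the teashirt gene Tshz2. They were chosen by symbol, and all 7 were found among the 49585 genes of the deposited count table. RNA of mouse mammary epithelial cells had been sequenced by Smart-seq2, a full-length method that amplifies the RNA of 1 sorted cell per well, in 384 wells of 1 plate: 374 single-cell wells, 5 wells of many cells (multicell wells, 1 for each group, cell number not given) and 5 negative control wells. All wells carry the same strain label, K8rtta/TetO-DTA/K5CreER/Rosa-Tomato on a mixed background, so the wild-type (WT) cells bear the transgenes too. In this strain the Krt8 promoter drives the doxycycline-dependent activator, which switches on diphtheria toxin A in luminal cells, and the Krt5 promoter drives the inducible Cre that labels basal cells and their progeny with Tomato. The sort is described, without separate gates for each group, as taking Tomato-positive cells negative for DAPI, CD45, CD31 and CD140a, with antibodies to CD24, CD29 and EpCAM in the stain. No source used here gives the gate that set hybrid cells apart.

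The 5 single-cell groups were WT basal (44 kept cells) and WT luminal (43), and, after ablation, basal (71), hybrid (85) and luminal (76). The ablated groups came from glands injected intraductally with 0.2 mg of doxycycline and taken 1 week later. The labels record no injection for WT glands and name no animal, so each group counted as 1 sample, and ablation, injection, doxycycline and animal cannot be told apart. How far luminal cells had been ablated was not measured. No test between groups was possible. Intervals below are exact 95% intervals of counting error only, and they are too narrow, since reads were amplified and carry no molecular identifiers. A level is given as CPM, the reads of a gene summed over the kept cells of a group per 1000000 reads in genes. Kept cells held 118310 to 3835005 reads. A ratio is the log2 ratio of summed CPM + 10, and a gene is called higher or lower when it differs by 2-fold or more on that scale. A cell detects a gene with at least 5 reads after thinning to 100000 reads, that is at about 50 CPM.

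The mammary duct has an outer layer of contractile basal cells, marked by Krt14, Krt5 and Acta2, and an inner layer of luminal cells, marked by Krt8 and Krt18. In the adult gland each layer is largely maintained by its own progenitors. Trp63 and Snai2 are known for basal identity, Sox9 and Sox10 for progenitor states of both layers, and Bcl11a and Bcl11b for luminal progenitors and basal stem cells respectively. The WT labels matched the markers of the layers. All 9 basal markers were lower, and all 8 luminal markers higher, in WT luminal than in WT basal cells. Of all measured genes (defined below) 21.3% were lower and 22.3% higher. Ablated hybrid cells held both, with Krt14 at 3714 CPM and Krt18 at 4644 CPM. Ablated luminal cells held Krt14 at 3920 CPM, against 35.4 CPM in WT luminal cells, but little Acta2 (288 CPM against 16591 CPM in ablated basal cells). Their Krt14 was uneven. It was detected in 50 of 76 ablated luminal and 84 of 85 hybrid cells, with single-cell medians of 283 and 2012 CPM. In ablated luminal cells 1 cell held 16.2% of the Krt14 reads. Groups lay in blocks of adjoining plate lines. Group and plate position therefore go together, except in the 4 lines that hold cells of both groups of a comparison.

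Across the 5 groups the 7 genes fell into 3 patterns. Trp63, Snai2 and Tshz2 were basal genes, highest in both basal groups by summed level and low or near 0 in WT luminal cells. They were detected in 12, 4 and 8 of 76 ablated luminal cells, against 0, 0 and 2 of 43 WT luminal cells. The intervals of these shares overlap for Snai2 and Tshz2. In the ablated luminal multicell well Trp63 was at 0 and Snai2 at 0.57 CPM. Sox9 and Sox10 were present in every group. Bcl11a and Bcl11b were rare, each carried by a few cells. Bcl11b was also detected in ablated (6 of 76) but not in WT luminal cells (0 of 43), with overlapping intervals. Per kb of exon, the scale on which genes can be compared, Sox9 was the highest of the 7 in each of the 5 groups (33.1 to 95.7 CPM per kb), while Bcl11a and Bcl11b did not exceed 2.26 CPM per kb in any group.

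**Figure D1:**
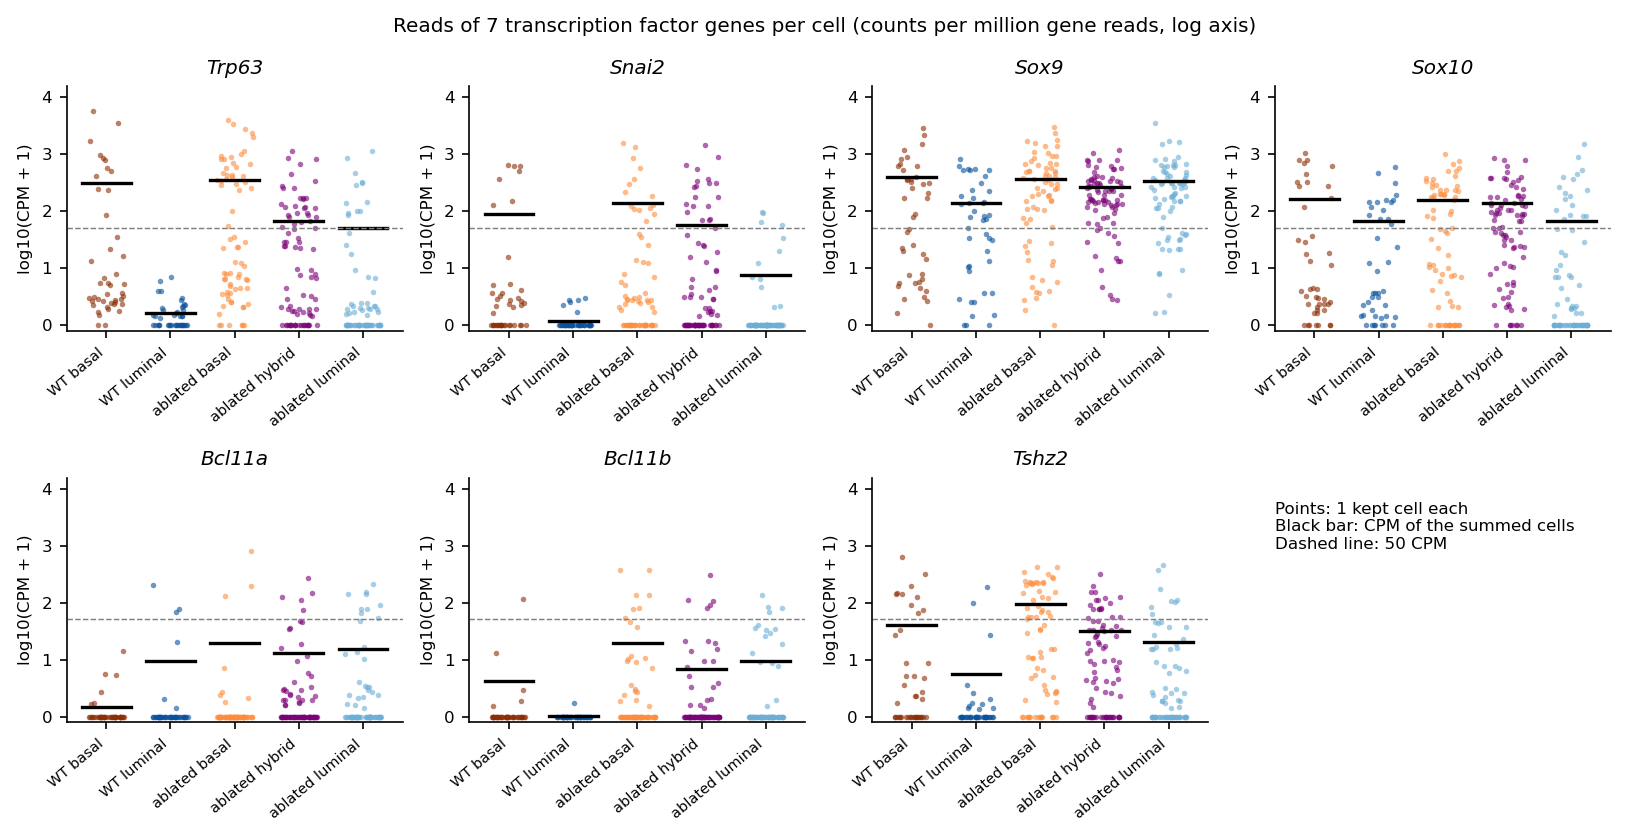
Level of each of the 7 genes in every kept cell (points, log10 of CPM + 1) by group, with the CPM of the summed cells as a black bar and 50 CPM as a dashed line. Trp63 and Snai2 cells above the dashed line are seen in 4 groups and in no WT luminal cell, while Sox9 cells above it are seen in all 5.

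Trp63 encodes p63, the p53-family factor that stratified and basal epithelia need for their identity. The gene lies on GRCm38 chromosome 16 from 25683763 to 25892102, forward strand (ENSMUSG00000022510.14). Its summed level was 309 CPM in WT basal cells (interval 304 to 314), 0.633 CPM in WT luminal cells, 354 CPM in ablated basal cells, 67.8 CPM in hybrid cells and 49.1 CPM in ablated luminal cells. The 2 basal groups were highest and WT luminal cells were near 0. Over single cells the lowest, median and highest level was 0, 3.44 and 5866 CPM in WT basal cells, 0, 0.361 and 6.05 CPM in WT luminal cells, and 0, 21.5 and 4043 CPM in ablated basal cells. The same 3 values were 0, 8.45 and 1152 CPM in ablated hybrid cells and 0, 0 and 1125 CPM in ablated luminal cells. The cells of every group thus overlapped at the low end, and the groups differed in how many cells stood high.

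Trp63 was detected in 12 of 44 WT basal cells (27.3%, interval 15.0 to 42.8%), 30 of 71 ablated basal cells (42.3%, 30.6 to 54.6%) and 28 of 85 ablated hybrid cells (32.9%, 23.1 to 44%). These intervals overlap. In WT luminal cells it was detected in 0 of 43, which allows a share of up to 6.98% by a limit of 3 cells and 8.22% by the exact interval, and in ablated luminal cells in 12 of 76 (15.8%, 8.43 to 26%). Ablated hybrid cells thus detected Trp63 about as often as ablated basal cells, but detecting hybrid cells held less of it, with a median of 128 CPM against 518 CPM. A few cells carried much of each sum: in WT basal cells 1 cell held 30.5% of the Trp63 reads, and in ablated luminal cells 1 cell held 26.9%.

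The 12 ablated luminal cells that detected Trp63 stood apart from the other 64 in their keratins. All 12 detected Krt14, with a median of 11389 CPM, against 38 of 64 and 115 CPM in the others. Krt5 was detected in 10 of the 12 (median 672 CPM) and in 9 of the 64 (median 2.64 CPM). All 12 also detected Krt8 and Krt18, though Krt18 had a median of 1691 CPM against 6258 CPM in the others. Acta2, the smooth muscle actin of contractile basal cells, was detected in 5 of the 12 and 18 of the 64, with medians of 18.1 and 15.8 CPM. The luminal factor gene Elf5 was detected in 0 of the 12 and 10 of the 64. Foxa1, of hormone-sensing cells, was detected in 3 and 26. No caller of wells with 2 cells was run. Cells with and without Trp63 were close in reads (median 1116730 and 1084000) and in genes (6434 and 6390). In the hybrid group, all 28 Trp63 cells detected Krt14, Krt18 and Acta2, and their Krt18 median was 1769 CPM against 4291 CPM in the 57 hybrid cells without Trp63. Elf5, Foxa1, Esr1 and Kit are named here and below after their values were seen.

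**Figure D2:**
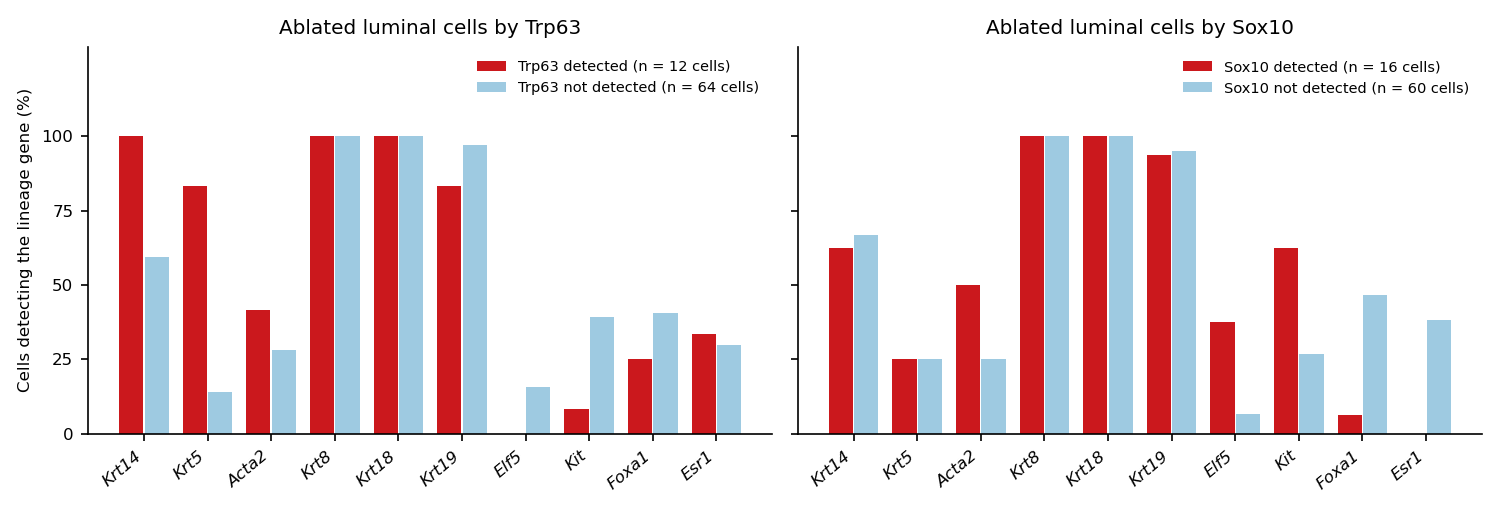
Percent of ablated luminal cells that detected each lineage gene, split by detection of Trp63 (left) and of Sox10 (right). Krt5 was detected in 10 of 12 Trp63 cells and 9 of 64 others, while Sox10 cells differ from the others in Elf5 (6 of 16 against 4 of 60) and Foxa1 (1 of 16 against 28 of 60).

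Snai2 encodes Slug, a zinc finger repressor of epithelial genes known from the basal layer and from epithelial-mesenchymal transition. The gene lies on chromosome 16 from 14705852 to 14709385, forward strand (ENSMUSG00000022676.6). Summed levels were 89.2 CPM in WT basal, 0.169 CPM in WT luminal, 141 CPM in ablated basal, 56.3 CPM in hybrid and 6.53 CPM in ablated luminal cells. By summed level both basal groups stood above the hybrid group, and both luminal groups stood below it. The mean over cells was 70.6, 0.213, 89.4, 79.2 and 5.11 CPM in the same order, which puts WT basal below hybrid cells. In WT basal cells 1 cell held 27.6% of the Snai2 reads. The highest single cell held 648, 2.00, 1553, 1433 and 95.8 CPM in the same order, with medians from 0 to 1.57 CPM, so most cells of every group had almost no Snai2. It was detected in 7 of 44, 0 of 43, 15 of 71, 20 of 85 and 4 of 76 cells. The hybrid share (23.5%, interval 15.0 to 34%) did not lie below the ablated basal share (21.1%, 12.3 to 32.4%), although the summed level did, and no order is read from the shares. Of the 4 ablated luminal cells with Snai2, 3 also detected Trp63, and all 4 detected Krt14, with a median of 13289 CPM against 192 CPM in the other 72. These 4 cells also held more genes, a median of 8123 against 6308, and the part of this in their values was not tested.

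Tshz2 encodes a zinc finger homeobox factor of the teashirt family. It lies on chromosome 2 from 169633013 to 170071816, forward strand (ENSMUSG00000047907.11). Its exons share 5076 bases with the gene Gm26883 on the opposite strand, and whether counting used strand is not stated, but Gm26883 held only 30 reads in all kept cells. Summed Tshz2 was 39.9 CPM in WT basal, 4.63 CPM in WT luminal, 95.7 CPM in ablated basal, 30.7 CPM in hybrid and 19.7 CPM in ablated luminal cells. The lowest cell had 0 in each group, and the highest had 640, 188, 423, 318 and 459 CPM, so all groups overlapped. It was detected in 9 of 44, 2 of 43, 28 of 71, 20 of 85 and 8 of 76 cells. In ablated luminal cells Tshz2 and Trp63 were in different cells: 0 of the 12 Trp63 cells detected Tshz2, and of the 8 Tshz2 cells 0 detected Krt5. With so few cells, this difference from Trp63 was not tested.

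The bases upstream of Tshz2 are shown because it is the basal gene of the set with a promoter in the RefSeq table used (GRCm38.p6, which held 3 of the 7 genes: Bcl11a, Bcl11b and Tshz2). The 250 bases before its RefSeq start, chr2:169632259-169632508 on the forward strand, are printed 5′ to 3′ with the GC box CCGCCC in capitals.
Tshz2 upstream: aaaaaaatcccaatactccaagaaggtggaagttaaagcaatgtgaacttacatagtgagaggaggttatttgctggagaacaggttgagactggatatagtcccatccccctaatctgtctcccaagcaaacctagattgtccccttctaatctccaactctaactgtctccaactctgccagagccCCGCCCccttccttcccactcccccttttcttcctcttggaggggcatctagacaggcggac
The GC box (CCGCCC or its reverse complement GGGCGG), a common promoter element, stands at position -62 from that start. It is present in the same window of 32.7% of 32851 promoters. Matches were also sought for the SNAI E-box (CAGGTG or CACCTG, in 17.2% of promoters), the SOX cores ACAAAG or CTTTGT (16.5%) and AACAAT or ATTGTT (9.42%), and a pair of p63 half-sites CATG with 6 bases between them (0.490%). None of these 4 motifs was in the window of Tshz2, Bcl11a or Bcl11b, which says only that these letters are not in these 250 bases.

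Sox9 encodes an HMG-box factor of the SOXE group, known from luminal and basal progenitors and from cartilage. It lies on chromosome 11 from 112782224 to 112787760, forward strand (ENSMUSG00000000567.5). Summed levels were 396 CPM in WT basal, 137 CPM in WT luminal, 373 CPM in ablated basal, 261 CPM in hybrid and 345 CPM in ablated luminal cells. WT luminal cells were the lowest group, and ablated luminal cells were close to the basal groups. Medians over single cells were 83.8, 71.4, 251, 193 and 257 CPM in the same order, with highest cells of 2905, 822, 2961, 1202 and 3560 CPM. Sox9 was detected in 25 of 44 (56.8%), 22 of 43 (51.2%), 51 of 71 (71.8%), 69 of 85 (81.2%) and 59 of 76 cells (77.6%). The interval of the ablated hybrid share (71.2 to 88.8%) lay above that of WT luminal cells (35.5 to 66.7%), and that of ablated luminal cells (66.6 to 86.4%) touched it. In the negative wells, which held 7930 to 13572 reads, Sox9 had 2, 0, 7, 3 and 5 reads, against a mean of 0.2 to 0.6 reads for Trp63, Snai2, Sox10 and Tshz2 and 0 for both Bcl11 genes.

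Sox10, the other SOXE gene of the set, is known from neural crest, from Schwann cells and from basal and progenitor cells of the breast. It lies on chromosome 15 from 79154908 to 79165240, reverse strand (ENSMUSG00000033006.9). Summed levels were 161 CPM in WT basal, 66.5 CPM in WT luminal, 157 CPM in ablated basal, 138 CPM in hybrid and 66.5 CPM in ablated luminal cells. Over single cells both luminal groups stood at the same summed level, below the other 3 groups, whereas in the multicell wells the WT luminal one was lower than the ablated luminal one. The lowest cell had 0 in each group and the highest had 1053, 603, 1006, 874 and 1509 CPM, so the groups overlapped. Sox10 was detected in 12 of 44 (27.3%), 15 of 43 (34.9%), 33 of 71 (46.5%), 46 of 85 (54.1%) and 16 of 76 cells (21.1%, interval 12.5 to 31.9%). The interval of the hybrid share (43 to 65%) lay above that of ablated luminal cells. The WT shares go against the WT levels, and no order is read from them.

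Lineage genes were set beside Sox10 within the luminal groups. The 4 named first were picked after their values were seen, so their split by Sox10 is a description and was not tested. In ablated luminal cells, Elf5, a factor of alveolar luminal progenitors, was detected in 6 of 16 Sox10 cells and 4 of 60 others. Kit, a receptor tyrosine kinase of luminal progenitors, was detected in 10 of 16 and 16 of 60. Foxa1 was detected in 1 of 16 and 28 of 60, and the oestrogen receptor gene Esr1 in 0 of 16 and 23 of 60. WT luminal cells showed the same directions, with Elf5 in 7 of 15 Sox10 cells and 3 of 28 others, Kit in 10 and 11, Foxa1 in 2 and 11, and Esr1 in 0 and 9. Csn3, a casein gene, had a median of 18836 CPM in the 15 WT luminal Sox10 cells and 172 CPM in the 28 others. In ablated luminal cells Csn3 did not show this split: it was detected in 6 of 16 and 20 of 60, with medians of 17.2 and 13.2 CPM. Krt5 showed no such split by Sox10 in ablated luminal cells (4 of 16 and 15 of 60), unlike its split by Trp63. Sox10 cells of the hybrid group also detected Kit more often, in 24 of 46 against 9 of 39. The splits of Elf5 (12 and 6), Foxa1 (5 and 7) and Esr1 (12 and 14) were smaller there than in the luminal groups. In basal cells Elf5, Foxa1 and Kit were detected in 0 cells of either basal group. Esr1 went the other way there. It was detected in 4 of 12 Sox10 cells and 6 of 32 others in WT basal cells, and in 10 of 33 and 7 of 38 in ablated basal cells.

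Markers of other cell types were set beside Sox10 and the other members. Of 10 melanocyte and Schwann cell markers, 4 to 6 had 0 reads in each group, and Tyrp1 and Foxd3 had 0 reads in all 5. Their summed level was 69.6, 0.338, 9.02, 28.8 and 1.61 CPM in the 5 groups. At least 1 of them was detected in 3 of 12, 0 of 15, 3 of 33, 5 of 46 and 0 of 16 Sox10 cells, and in 3 of 32, 0 of 28, 0 of 38, 2 of 39 and 1 of 60 cells without Sox10. Most Sox10 cells thus had none, while the 3 ablated basal cells with such a marker were all Sox10 cells. Of 6 fibroblast markers Lum had 0 reads in every group, and the reads were mainly those of the proteoglycan gene Dcn, although the sort excluded CD140a, the product of Pdgfra. At least 1 fibroblast marker was detected in 7 of 12 WT basal Sox10 cells against 13 of 32 others, in 24 of 33 ablated basal ones against 19 of 38, and in 40 of 46 hybrid ones against 22 of 39. In the luminal groups this was not so, with 1 of 15 against 7 of 28 in WT and 1 of 16 against 4 of 60 in ablated cells. Their part in the Sox10 values was not tested. All 4 endothelial markers had 0 reads in both WT groups. At least 1 of the 7 skin keratinocyte markers was detected in 1 to 13 cells of a group.

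Bcl11a and Bcl11b encode related zinc finger factors that recruit chromatin remodelling complexes. Bcl11a is known from luminal progenitors and Bcl11b from basal cells and T cells. Bcl11a lies on chromosome 11 from 24078056 to 24174123, forward strand (ENSMUSG00000000861.15), and Bcl11b on chromosome 12 from 107910403 to 108003602, reverse strand (ENSMUSG00000048251.15). Since reads could be shared between such related genes, the most alike 90 coding bases of the pair are printed 5′ to 3′ from GENCODE M21 transcripts, with the differing bases in capitals. They are bases 1198 to 1287 of the coding sequence of Bcl11a and bases 1345 to 1434 of that of Bcl11b.
Bcl11a: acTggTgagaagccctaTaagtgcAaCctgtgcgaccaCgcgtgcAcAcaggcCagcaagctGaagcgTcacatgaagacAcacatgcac
Bcl11b: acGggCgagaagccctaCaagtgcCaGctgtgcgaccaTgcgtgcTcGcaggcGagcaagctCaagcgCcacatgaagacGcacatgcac
Even here 12 of 90 bases differed (86.7% identical), and the longest run shared by any transcripts of the pair was 26 bases. For Sox9 and Sox10 the longest shared run was 44 bases, and for the other members and their closest relatives it was 14 to 28 bases. No source used here gives the read length.

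Summed Bcl11a was 0.498 CPM in WT basal, 8.34 CPM in WT luminal, 18.7 CPM in ablated basal, 12.4 CPM in hybrid and 14.6 CPM in ablated luminal cells. It was detected in 0 of 44, 3 of 43, 3 of 71, 5 of 85 and 9 of 76 cells, shares whose intervals overlap. In WT luminal cells 1 cell held 74.2% of the reads, and in ablated basal cells 1 cell held 73.1%, with 5.12 CPM left without it. Summed Bcl11b was 3.31, 0.0141, 18.3, 5.92 and 8.61 CPM in the same order, with 1 of 44, 0 of 43, 7 of 71, 5 of 85 and 6 of 76 cells detecting it. The single WT luminal read of Bcl11b is at or under the floor of 3 reads (0.0422 CPM), so only the ratio with 10 CPM added is used against that group. Sox10 was detected in 2 of 3 WT luminal, 3 of 3 ablated basal, 4 of 5 hybrid and 4 of 9 ablated luminal Bcl11a cells. Of all cells of these 4 groups 34.9, 46.5, 54.1 and 21.1% detected it. Of the Bcl11b cells 3 of 7, 1 of 5 and 0 of 6 detected Sox10 in the ablated basal, hybrid and luminal groups. Sox9 was detected in all Bcl11a and all Bcl11b cells of the hybrid and ablated luminal groups. The difference between the Bcl11 genes in Sox10 rests on few cells and was not tested. Among 11 lymphocyte and immune markers, 5 to 10 had 0 reads in each group, whose sort excluded CD45. The T-cell genes Cd3d, Cd3g and Cd2 had 0 reads in all 5 groups, but Cd3e had 388 reads in WT luminal and 150 in ablated luminal cells, and Lck had 86, 465 and 483 reads in ablated basal, hybrid and ablated luminal cells. These 5 genes were named after their values were seen. The summed level of the list was 0.108, 5.46, 17.8, 29 and 9.29 CPM over the 5 groups. At least 1 marker was detected in 0 of 7, 1 of 5 and 1 of 6 Bcl11b cells of the ablated groups.

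**Figure D3:**
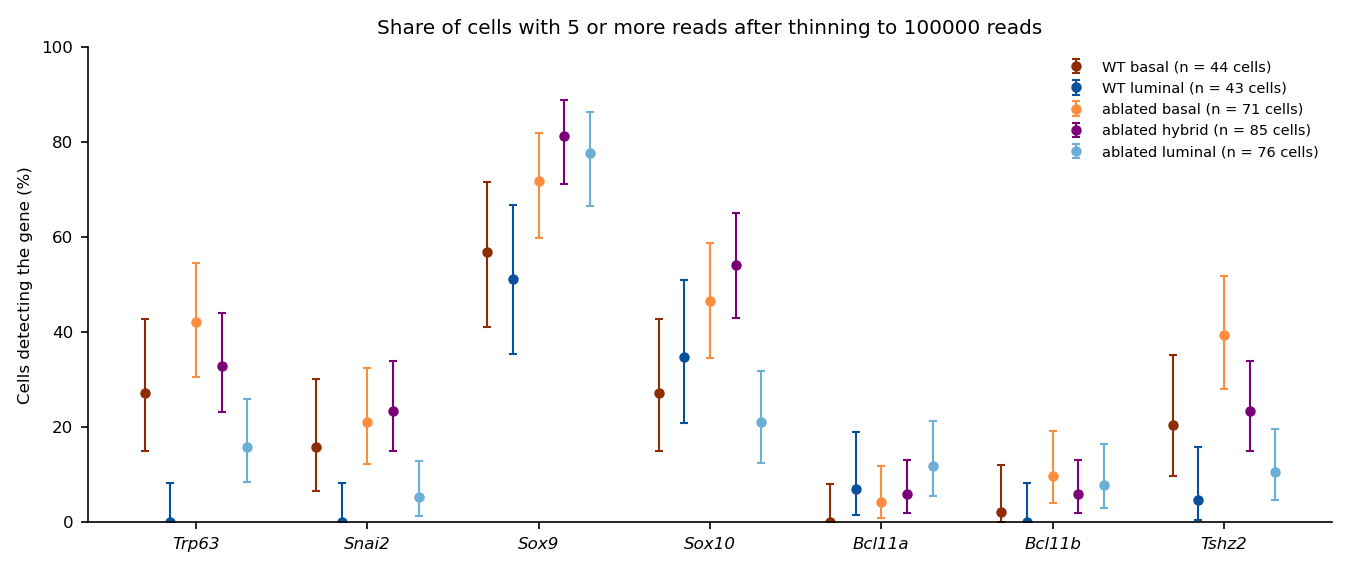
Percent of kept cells that detected each gene (points) with exact 95% Clopper-Pearson intervals (bars), by group. Sox9 has the highest share in each group (51.2 to 81.2%), and the intervals of Bcl11a and Bcl11b overlap between all groups.

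The WT comparison gives the normal difference between the layers. Trp63, Snai2, Sox9, Sox10 and Tshz2 were lower in WT luminal than in WT basal cells, by log2 ratios of -4.91, -3.29, -1.47, -1.16 and -1.77. These 5 of 7 members stand beside 21.3% of all 11106 measured genes (those with a 5-group mean of 5 CPM or more, which all 7 members reached) that were lower. For the other direction, 0 members and 22.3% of genes were higher, with Bcl11a at 0.81 and Bcl11b at -0.41. The median ratio was -1.47 over the members and 0.01 over all measured genes. In plate line C, which held 11 WT luminal and 10 WT basal cells, Trp63 (-5.89), Snai2 (-2.86) and Tshz2 (-1.97) were lower as well, but Sox9 (0.61) and Sox10 (0.29) were not. The Sox9 and Sox10 difference between WT layers therefore turned direction within the shared line. In the multicell wells it was -2.26 and -2.45.

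In ablated against WT basal cells, Trp63 (0.19), Sox9 (-0.08) and Sox10 (-0.04) were nearly level, and Snai2 was at 0.60. Bcl11a (1.45), Bcl11b (1.09) and Tshz2 (1.08) were higher. These 3 of 7 compare with 19.8% of measured genes higher, and 0 of 7 members with 14.9% lower. Both Bcl11 values rest on few cells. Without the cell with most reads in each group Bcl11a was at 0.56, and with 50 CPM added 0 members were called. Tshz2 was at 0.98 with TMM scaling (trimmed mean of M-values, which sets most genes level between groups). In plate line E, with 9 ablated and 13 WT cells, these 3 ratios were 0.50, 0.21 and 0.94, and Snai2 alone was called higher (4.06). In the multicell wells Bcl11a was at 3.15, Bcl11b at -0.71 and Tshz2 at 0.61. Trp63 (1.22) and Sox9 (-1.75), nearly level over single cells, were past 2-fold there. Snai2 was at 0.95 and Sox10 at 0.57.

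Between ablated and WT luminal cells, all 7 ratios were at or above 0, and Trp63 (2.47), Sox9 (1.28) and Tshz2 (1.02) were called higher. These 3 of 7 stand beside 15.3% of measured genes called higher, and 0 of 7 beside 6.61% called lower. The remaining values were 0.70 for Snai2, 0.89 for Bcl11b, 0.42 for Bcl11a and 0.00 for Sox10. In this pair the median of all measured genes was itself at 0.21, and TMM scaling, which brought it to 0.01, left only Trp63 called (2.33), with Sox9 at 0.99, Tshz2 at 0.87 and Sox10 at -0.26. The share of calls in the higher direction among all genes was 69.8% as summed, 53% with TMM scaling and 50.4% with median-of-ratios scaling. In the multicell wells none of these 3 was called: Trp63 was at 0.00 (0 reads in both wells), Sox9 at 0.49 and Tshz2 at 0.91, while Sox10 was called higher there (2.10). No plate line held both groups, so plate position and treatment cannot be told apart here.

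Hybrid cells were set against both other ablated groups, so these comparisons share the hybrid cells. Against ablated basal cells, Trp63 (-2.23), Snai2 (-1.18) and Tshz2 (-1.38) were lower, while Sox9 (-0.50), Sox10 (-0.17), Bcl11a (-0.36) and Bcl11b (-0.83) were not called. With equal weight for each cell Snai2 was at -0.16 and not called. These 3 of 7 compare with 8.87% of measured genes lower, and 0 of 7 members with 16% higher. Of the calls among all genes 64.4% were higher as summed and 52.8% with TMM scaling. Against ablated luminal cells, Snai2 (2.00) was the 1 member called higher, beside 6% of measured genes, and 0 members were lower, beside 4.19%. Sox10 was next at 0.95, and at 1.31 without the cell with most reads in each group. Trp63 was at 0.40, Tshz2 at 0.45 and Sox9 at -0.39. In plate line M, with 17 hybrid but only 4 ablated luminal cells, Trp63 (3.43), Snai2 (2.30) and Sox10 (1.36) were higher.

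Ablated luminal against ablated basal cells repeated the WT layers for Trp63 (-2.62), Snai2 (-3.19), Sox10 (-1.13) and Tshz2 (-1.83), which were lower, beside 13.2% of measured genes. Sox9 (-0.11) was nearly level, and 0 members were higher, beside 19.3% of genes. Between WT layers Sox9 had been lower in luminal cells by summed reads (-1.47), but not within plate line C (0.61). Its medians over single cells were 83.8 CPM in WT basal and 71.4 CPM in WT luminal cells. In plate line I, with 9 luminal and 4 basal cells, Snai2 turned direction (0.86), while Trp63 was at -1.32 and Sox10 at -3.88. Sox10 was not called with equal weight for each cell, either here (-0.78) or between the WT layers (-0.92).

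**Figure D4:**
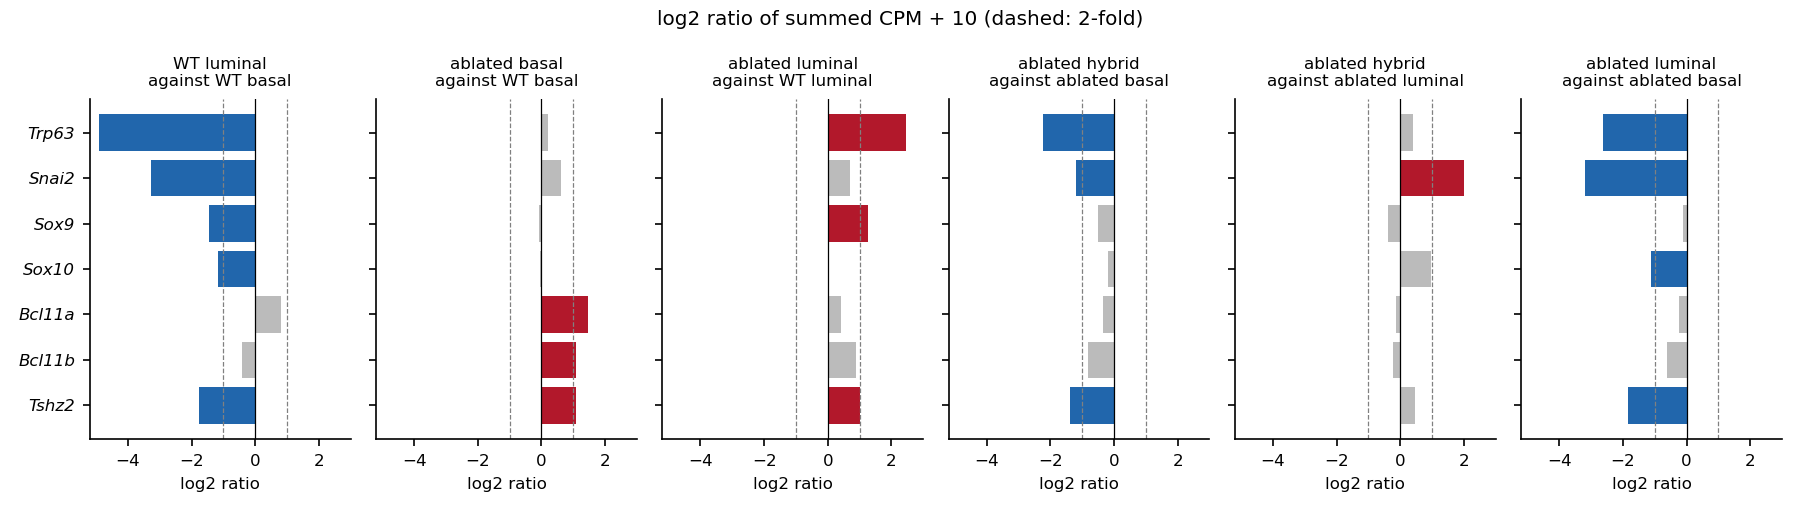
Log2 ratio of summed CPM + 10 for each gene in the 6 comparisons (red: 2-fold or more higher in the first group, blue: 2-fold or more lower, grey: neither, dashed lines at 2-fold). In all, 5 genes are lower in WT luminal than in WT basal cells, 3 are higher in ablated than in WT luminal cells, and Sox9 is grey between the ablated layers (-0.11).

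The multicell wells, separate libraries with 1005368 to 3511761 reads in genes, gave another view of the same labels. In such pooled RNA, fewer cells of a type and less RNA per cell cannot be told apart. Trp63 stood at 55.2 CPM in WT basal, 0 in WT luminal, 142 CPM in ablated basal, 153 CPM in ablated hybrid and 0 in ablated luminal wells. Snai2 stood at 72.2, 0, 149, 57 and 0.57 CPM. Both genes were thus at or near 0 in both luminal wells, and the Trp63 found in 12 single ablated luminal cells was not seen in the multicell well of that label. That well also had little Krt5 (4.56 CPM, against 288 CPM over single cells) and Krt14 (165 against 3920 CPM). Its number of cells is not given. Trp63 in the hybrid well was as high as in the ablated basal well (log2 ratio 0.10), unlike the single cells.

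Sox9 stood at 643, 126, 184, 108 and 182 CPM and Sox10 at 110, 11.9, 168, 232 and 84.3 CPM in the 5 wells. Sox10 was thus highest in the hybrid well and lowest in the WT luminal one. Bcl11a was at 0.354, 68.6, 81.8, 29.9 and 0.57 CPM, Bcl11b at 6.37, 0, 0, 2.83 and 0.57 CPM, and Tshz2 at 23.7, 0, 41.3, 6.47 and 8.83 CPM. For Bcl11b the WT basal well was the highest, against the single cells, where ablated basal cells were. A level of 0 in a well allows up to 3 reads, which is 1.32 CPM in the ablated basal well and 0.854 CPM in the ablated luminal one.

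**Figure D5:**
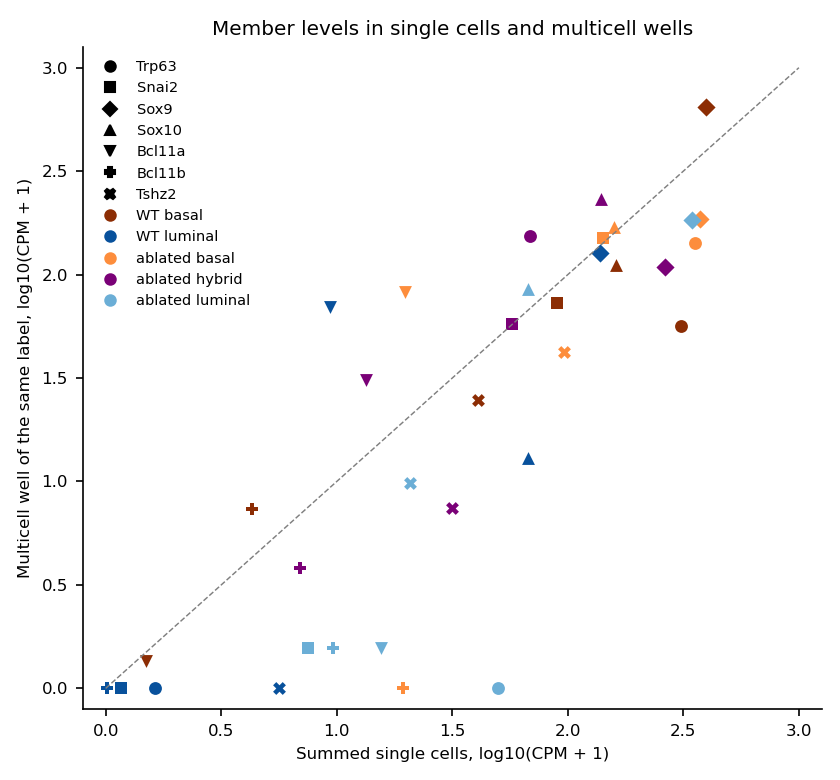
Level of the 7 genes in the multicell well (vertical, log10 of CPM + 1) against the summed single cells of the same label (horizontal), with marker shape for the gene and colour for the group and the line of equal level dashed. The point for Trp63 in ablated luminal cells lies on the bottom axis, at 49.1 CPM in single cells and 0 in the well.

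Cells rarely detected many of the 7 genes at once. At least 3 were detected in 9 of 44 WT basal (20.5%), 3 of 43 WT luminal (6.98%), 32 of 71 ablated basal (45.1%), 35 of 85 ablated hybrid (41.2%) and 13 of 76 ablated luminal cells (17.1%), and 6 or 7 in 0 cells of any group. No member was detected in 9, 11, 2, 5 and 13 cells of the same groups. Sox9 and Sox10 were detected together in 7, 6, 27, 39 and 14 cells, and Trp63 with Snai2 in 4, 0, 5, 10 and 3. Sox10 was detected in 18 of 28 Trp63 cells of the hybrid group (64.3%), beside 54.1% of all hybrid cells. In the ablated luminal group it was detected in 3 of 12 Trp63 cells (25%), beside 21.1% of all cells of that group. Both values are near the share of the group. Over all 319 kept cells, which share plate and library preparation, Pearson's r of log2(CPM + 10) between members did not exceed 0.25 (Trp63 with Snai2), too weak in sparse counts to be read as a relation.

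By the same measure, the genes most like each member in the 319 cells were named. They were Tpm2 (0.43), Sparc (0.41) and Krt5 (0.39) for Trp63, and Krt5 (0.35), Myl9 (0.35) and Gas1 (0.34) for Snai2. Tpm2 and Myl9 are contractile genes, and Sparc encodes a matrix protein. For Tshz2 they were the matrix gene Postn (0.36) and the contractile genes Tagln (0.33) and Tpm2 (0.32). Sox10 had Plekhb1 (0.33), Slc3a2 (0.31) and Nrep (0.31), and Sox9 had Gli3 (0.27), Arhgef1 (0.24) and Dynll1 (0.23). Bcl11a had Mindy3 (0.32), Atp6v1b1 (0.28) and Usp9x (0.27), and Bcl11b had Enkd1 (0.33), Pramef8 (0.31) and Ednra (0.29). With each group centred on its own mean, the nearest genes of Sox10 became Wfdc18 (0.37), Muc15 (0.33) and Kit (0.32), which are luminal in these data. Centring left none of the above genes for Trp63 (Col17a1 0.26, Pla2g7 0.26, Vim 0.25), Snai2 (Vsnl1 0.26, Zfp790 0.24, Efcab1 0.24) or Tshz2 (Trpv6 0.26, Shisa8 0.23, Ddx55 0.22). Sox9 kept Gli3 and Arhgef1, Bcl11a kept Mindy3 and Atp6v1b1, and Bcl11b kept Enkd1 and Pramef8. The uncentred values pool the groups, so differences between groups enter them. All these r are low, and none is read as a relation.

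Genes around the members were listed by role. Of 20 genes reported as p63 targets, all measured, 16 were lower and 0 higher in WT luminal than in WT basal cells. Over all measured genes these shares were 21.3% and 22.3%. In ablated against WT luminal cells 12 were higher and 1 lower, with a median of 1.48 against 0.21 over all measured genes. Of all measured genes 15.3% were higher and 6.61% lower there. Krt14 was at 35.4 CPM in WT and 3920 CPM in ablated luminal cells, with single-cell medians of 8.37 and 283 CPM. Perp, a desmosome-associated gene, was at 173 and 532 CPM, and Dst, a hemidesmosome linker, at 103 and 199.9 CPM (a ratio of 0.89, not called). In ablated luminal against ablated basal cells 12 of the 20 were lower and 1 higher, beside 13.2% and 19.3% of all measured genes. Of 10 genes known to be repressed by SNAI factors, 9 were higher in WT luminal than in WT basal cells, as were 22.3% of genes. In hybrid against ablated basal cells 8 were higher. The 3 of highest mean level, in ablated basal and hybrid cells respectively, were Krt18 (302 and 4644 CPM), Krt8 (356 and 2300 CPM) and Epcam (338 and 1958 CPM). The 2 members of the list that were not called there were Cdh1 (0.79) and Dsp (-0.58), and 16% of all measured genes were higher in that comparison. Of the 85 hybrid cells, the 20 with Snai2 held less of the 3 genes than the 65 without it. Medians were 1101 and 4082 CPM for Krt18, 854 and 1933 CPM for Krt8, and 1113 and 1837 CPM for Epcam. In ablated basal cells Krt18 (52.5 and 34.35 CPM) and Krt8 (241 and 109 CPM) were higher with Snai2, while Epcam was lower (82.2 and 155 CPM). In WT basal cells only Krt18 was higher with it (271 and 38 CPM), with Krt8 at 43.1 and 167 CPM and Epcam at 155 and 342 CPM. All 3 were lower in the 4 ablated luminal cells with Snai2 than in the other 72. Hybrid cells with Trp63 also held less Krt18, as given above. These splits were not tested. These 2 lists hold lineage keratins, and Epcam was part of the sort.

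Of 14 genes known as SOXE targets only 5 were measured, and 4 of these were higher in ablated than in WT basal cells, as were 19.8% of all measured genes. In that comparison Sox9 and Sox10 were nearly level over single cells, but Sox9 was at -1.75 in the multicell wells. The 3 most abundant targets stood at 201 and 418 CPM (Col9a3, a cartilage collagen gene), 59 and 134 CPM (Mia) and 0.303 and 33.5 CPM (Erbb3) in WT and ablated basal cells. Of the paralogs, Sox8, the last SOXE gene, was at 63.4 CPM in WT basal and 0.0985 CPM in WT luminal cells, and Trp53 was higher in ablated than in WT cells of both layers (1.14 and 1.18). Tshz1 stood between 11.5 and 22.6 CPM in all groups. Of 5 other measured SOX genes, Sox4 was lower in WT luminal (23.2 CPM) than in WT basal cells (197 CPM) and stood at 173 CPM in ablated luminal cells. Sox5 was highest in ablated basal cells (46.9 CPM) and Sox13 in WT basal cells (39.9 CPM).

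Among 3 measured genes of epithelial-mesenchymal transition, Tcf4 (21.1 and 147 CPM) and Prrx1 (0.127 and 11.6 CPM) were higher in ablated than in WT luminal cells, and Snai1 was not (13.1 and 2.86 CPM). Of 13 other measured basal-associated factors, 7 were lower in WT luminal than in WT basal cells, beside 21.3% of all genes. In ablated against WT luminal cells 4 were higher, beside 15.3% of all genes. The 3 most abundant, Runx1, Nfib and Nfix, stood at 843, 718 and 559 CPM in WT basal cells and at 278, 332 and 234 CPM in ablated luminal cells. Of 14 luminal factors, 8 were higher in WT luminal than in WT basal cells, beside 22.3% of all genes. In ablated against WT luminal cells 1 was higher and 3 lower, beside 15.3% and 6.61% of all genes. In WT and ablated luminal cells, Elf3 stood at 659 and 227 CPM, Ehf at 204 and 286 CPM and Gata3 at 443 and 385 CPM. Of 15 genes of chromatin complexes that BCL11 factors join, 3 were higher and 0 lower in ablated than in WT luminal cells, a share near the 15.3% of all measured genes that were higher. The most abundant, Rbbp7, Rbbp4 and Smarca4, stood at 374, 90.2 and 106 CPM in ablated luminal cells and were not called there.

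Of 10 measured progenitor-associated genes, 3 were higher in ablated than in WT luminal cells and 1 was lower, against 15.3% and 6.61% of all measured genes. The Wnt target and receptor gene Lgr5 stood at 270, 0.563, 420, 98.1 and 77.9 CPM over the 5 groups and the keratin gene Krt15 at 124, 0.535, 597, 727 and 239 CPM. Both were near 0 in WT luminal cells and present in ablated luminal cells, as Trp63 was. Of the 12 ablated luminal Trp63 cells, 4 detected Lgr5 and 6 detected Krt15, against 13 and 18 of the 64 others. Tspan8 stood at 1093 CPM in WT basal cells and between 226 and 470 CPM in the other groups.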

How the data were processed

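For 384 wells the authors deposited 1 table of unnormalized read counts by gene, made with cutadapt 1.13, STAR 2.5.2b and HTSeq 0.6.0 on GRCm38, tools and build named in the submitters' processing notes without their roles or settings. Spike-in rows (92, with 11 reads in all) were left out. Of 374 single-cell wells, 319 were kept, which had 100000 or more reads in genes, 1000 or more genes and no more than 20% of reads from mitochondrial genes. Of the 55 left out, 47 had too few reads. No doublet caller was run. Reads were summed per group as CPM (per 1000000 reads in genes), with exact Poisson 95% intervals for levels and exact Clopper-Pearson intervals for shares, both covering counting error only. A count of 0 allows up to 3 reads or cells. Group sums held 46165993 to 95990962 reads, so 3 reads are 0.0313 to 0.0650 CPM.

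No test fitted the design, since each group counted as 1 sample, and ratios of summed CPM + 10 were read against a 2-fold limit and against all measured genes. The members and gene lists were chosen with earlier results of these data known. Text named the 7 members, the 3 genes of highest mean CPM in each list and the 3 genes of highest correlation with each member, and genes named outside this rule are given as such. Alternatives changed the filters, scaling (TMM by edgeR 4.0.16, median of ratios), the CPM added, thinning, detection limit, the cell with most reads, the plate line and the library type (multicell wells). Gene positions and lengths came from GENCODE M21. Python 3.11.15, numpy 2.4.6, pandas 2.3.3, scipy 1.17.1 and R 4.3.3 were used, and the ratio calculation was tested on simulated data.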

Additional observations from a re-analysis of the deposited data

Results flagged for a closer look

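In the 5 negative wells, the reads of Trp63, Sox10 and Tshz2 were each 1 in 1 well and 0 in the other 4, so that for each gene 1 well stood apart from the rest by Dixon's criterion. It was a different well for each of the 3 genes. With 1 read in 1 of 5 wells this criterion always flags that well, so nothing is read from these flags. A single read in such a well is far under the 5 thinned reads that count as detection.

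For Sox9 the log2 ratio of ablated to WT cells, from summed reads, was -0.08 in basal cells and 1.28 in luminal cells. Medians over single cells were higher after ablation in both layers. They were 83.8 and 251 CPM in WT and ablated basal cells, and 71.4 and 257 CPM in WT and ablated luminal cells. In WT basal cells 1 cell held 23.6% of the Sox9 reads. With 1 sample in each group, the difference between the log2 ratios of the layers was not tested.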

How the results depend on the processing

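Of 279 alternative values of the 19 ratios called 2-fold, 5 reversed and 274 did not, 1 of which, Trp63 in ablated against WT luminal cells, was at 0.00 in the multicell wells. In the multicell wells Bcl11b in ablated against WT basal cells was at -0.71 and Trp63 in hybrid against ablated basal cells at 0.10. Within the shared plate line, Sox9 (0.61) and Sox10 (0.29) in WT luminal against WT basal cells and Snai2 (0.86) in ablated luminal against ablated basal cells reversed. The cause was not tested. Of 176 values of member counts, 154 stayed within 1.5 times and 22 did not. With TMM and with median-of-ratios scaling, 1 member was higher in ablated than in WT luminal cells. With 1 CPM added, the members called higher were 1 in WT luminal against WT basal, 5 in ablated against WT luminal and 2 in hybrid against ablated luminal cells. With 50 CPM added, 3 were lower in WT luminal against WT basal and 1 lower in hybrid against ablated basal, while 0 were higher in ablated against WT basal, 1 in ablated against WT luminal and 0 in hybrid against ablated luminal cells. Without the cell holding most reads, 2 were higher in hybrid than in ablated luminal cells. In the multicell wells, 1 was higher in WT luminal against WT basal, 1 lower in ablated against WT basal, 1 higher (Sox10, none of those called over single cells) and 1 lower in ablated against WT luminal, and 4 higher in hybrid against ablated luminal cells. Within shared plate lines, 1 was higher and 3 lower in WT luminal against WT basal, 1 higher in ablated against WT basal, 3 higher in hybrid against ablated luminal, and 1 higher and 2 lower in ablated luminal against ablated basal cells. In the last comparison 59.4% of the calls among all genes were higher as summed, 50.3% with TMM and 49% with median-of-ratios scaling. Detection shares moved beyond their interval in 75 of 320 alternatives. No paired analysis was possible because each group counted as 1 sample and no replicate number links wells of different groups.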

Other observations

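Krt15, a keratin of basal and progenitor cells, was set beside Trp63. In WT basal cells it was detected in 1 of 12 cells with Trp63 and 2 of 32 without it (medians 1.99 and 1.43 CPM). Among ablated basal cells, 16 of 30 with Trp63 detected Krt15 (median 256 CPM), against 8 of 41 without it (median 4.83 CPM). Among hybrid cells, 18 of 28 with Trp63 (median 384 CPM) and 31 of 57 without it (median 68 CPM) did. In WT basal cells, the 25 with Sox9 held a Krt14 median of 6584 CPM and a Krt5 median of 394 CPM, against 1622 and 6.85 CPM in the 19 without it, and had more reads (median 1170610 against 739730). In ablated basal cells the Krt5 median was 331 CPM in the 51 cells with Sox9 and 1017 CPM in the 20 without it, and the Krt14 medians were 4220 and 4357 CPM. These differences were noticed in the data and were not tested.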
